A study of Rattus norvegicus with 2 samples.

Results

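The miR-99/100 and miR-125 families were examined in rat tongue through the 5 array entries named rno-miR-99a, rno-miR-100, rno-miR-99b, rno-miR-125b-5p and rno-miR-125a-5p, which are 5 of the 350 miRNAs on the array. Entries were taken by exact name among the array's non-control spots, and passenger strands (names with an asterisk) and the let-7 miRNAs of the same clusters were kept out. The study set squamous cell carcinoma of the rat tongue against normal rat tongue. Male Sprague-Dawley rats that were 6 to 7 weeks old at the start drank 4NQO, a chemical carcinogen of the oral cavity, at 0.02 g/l, or distilled water alone, with 20 rats in each arm. Tongues were collected after 36 weeks, and 7 tumours and 7 normal tongue samples gave RNA. The data are 1 tumour-labelled and 1 normal-labelled array, and the labels do not say how many of the samples went onto each. With 1 array per group no test between groups was possible, every error below is the spread of spots on an array, and the directions rest on the labels being right. miR-21 and miR-31, commonly reported as raised in oral carcinoma, had log2 ratios of -3.26 and -3.93, and the muscle miRNA miR-1 had 3.72, labelled tumour over labelled normal and scaled as described below. These were picked after their values were seen. Exchanged labels and a real difference cannot be told apart here, and an exchange would turn every direction and every rank by ratio given below. Absolute differences between miRNAs, and ranks by them, would stay as they are.

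miRNAs are short RNAs that pair with mRNAs through their seed, the bases near the 5′ end, and lower the mRNAs' translation and stability. miR-99a, miR-99b and miR-100 form the miR-99/100 family, whose known targets include the kinase mTOR and the receptor IGF1R. miR-125a and miR-125b are the mammalian relatives of lin-4, the founding miRNA of the nematode, and their known targets include LIN28 and ERBB2. The members of both families are encoded side by side with let-7 genes. In human oral and head and neck carcinoma miR-99a, miR-100 and miR-125b are commonly reported as lowered.

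The mature sequences show how 4 of the 5 members fall into the families. By name, these 4 had a mature sequence in the RefSeq table of the rat assembly GRCr8. The fifth is miR-99a, whose seed is therefore not shown and whose family is taken from its name. Capitals mark the seed, bases 2 to 8, and miR-351 is added as the only other rat miRNA of the table with a member's seed.
miR-100 (chr8:50798307-50798328, plus strand): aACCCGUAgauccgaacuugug
miR-99b (chr1:67350070-67350091, plus strand): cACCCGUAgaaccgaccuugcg
miR-125b-5p (chr11:29732588-29732609, plus strand): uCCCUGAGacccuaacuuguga
miR-125a-5p (chr1:67350689-67350712, plus strand): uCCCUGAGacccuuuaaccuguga
miR-351 (chrX:137725157-137725181, minus strand): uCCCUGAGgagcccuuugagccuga
miR-100 and miR-99b share their seed and differ at 4 of 22 bases. miR-125b-5p and miR-125a-5p are identical over the first 13 bases.

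The members' genes lie in 3 clusters, each with a member of either family on the same strand. Mir99a and Mir125b2 are on chromosome 11, 45.1 kb apart, Mir100 and Mir125b1 are on chromosome 8, 51.7 kb apart, and Mir99b and Mir125a are on chromosome 1, 0.541 kb apart. The mature miR-125b-5p listed for Mir125b2 is also contained in the hairpin of Mir125b1. Its array signal is therefore the sum over 2 genes, and the array cannot say how much came from the neighbour of miR-99a and how much from the neighbour of miR-100.

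Each member was read by 2 probes that differ in length by 1 base, and each probe was printed in 10 spots. The 8 probes of the members with a mature sequence were exact complements of its 3′ end, starting between base 4 and base 8, so they read the 3′ part of the miRNA and only part of the shared seed. The longer probes of miR-99a and miR-100 are shown because they differ so little. Capitals mark the bases at which the probes of a pair differ when aligned without gaps from their 5′ ends.
miR-99a probe: cacaagAtcggatctacggg
miR-100 probe: cacaagTtcggatctacgg
miR-125b-5p probe: tcacaAgttaGGgTCtc
miR-125a-5p probe: tcacaGgttaAAgGGtctc
The probes of miR-99a and miR-100 differ at 1 of 19 aligned bases, so RNA of either could reach the probes of the other, and its part in the values below was not tested. Aligned in the same way, the probes of miR-125b-5p and miR-125a-5p differ at 5 of 17 bases, and the probe of miR-99b differs from that of miR-99a at 3 of 16.

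A probe counted as detected on an array if the scanner software marked over 50% of its spots as well above background. The tumour-labelled array detected all 5 members and the normal-labelled one 4, against 104 and 88 of the 350 miRNAs. The tumour-labelled array was brighter as a whole: the 75th percentile of the 140 probes detected on both arrays was 525.6 against 277.5 intensity units, a log2 ratio of 0.92. Ratios were taken after each array was divided by that percentile, and a value without scaling is higher by 0.92 on the log2 scale. Muscle markers also differed: of 5 skeletal muscle miRNAs 4 were measured and all 4 were higher on the tumour-labelled array, with a summed scaled level of 31.5 against 4.90, while miR-499 was detected on neither array. All 7 epithelial markers were measured and all 7 had ratios below 0 after scaling, with a median of -0.61 that was 0.31 without it. Of 5 leukocyte markers 3 were measured, 2 with ratios below 0 and miR-150 at 1.43, with a median of -1.82 (-0.90 without scaling) and a summed scaled level of 0.5003 against 1.14. Of 5 stromal markers 4 were measured, 3 of them below 0, with a median of -1.02 (-0.10 without scaling) and a summed scaled level of 2.16 against 2.74. Of 2 red cell markers miR-451 was at 1.04, and of 2 endothelial markers miR-126 was at 0.68. The others of these lists, miR-144 and miR-126*, were detected on neither array, and no nerve or liver marker was detected. The part of these tissue markers in the members' values was not tested.

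miR-99a was brighter on the tumour-labelled array with both of its probes. The longer probe gave 236.3 ± 11.2 intensity units (spot SD, 10 spots) on the tumour-labelled array and 73.2 ± 4.42 (10 spots) on the normal-labelled array. Its spots ran from 214.5 to 248.3, with a median of 238.8, on the tumour-labelled array, and from 65.9 to 78.9, with a median of 74.4, on the normal-labelled array. The spots of the arrays did not overlap, either before scaling or after it. The shorter probe gave 117.6 ± 6.08 and 39.7 ± 3.11 (10 spots each), also without overlap. Overlap of spots was looked at for the members' probes alone, so how common its absence is among all probes is not known. After scaling miR-99a was 1.63-fold higher on the tumour-labelled array (log2 ratio 0.71, spot SE 0.03), and its probes gave 0.64 and 0.77. This is under the 2-fold taken here as a call, a rule of size and not a test. Without scaling the ratio was 3.09-fold (log2 ratio 1.63), so the direction of miR-99a did not depend on the scaling while its size did.

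miR-100, the closest relative of miR-99a by probe, was detected on the tumour-labelled array alone. Its longer probe gave 82.0 ± 4.26 intensity units there (10 spots, all well above background) and 11.9 ± 1.95 on the normal-labelled array (10 spots, of which 0 were well above background). The spots ran from 75.02 to 88.3 on the tumour-labelled array and from 9.49 to 15.4 on the normal-labelled array, which leaves a wide gap between the arrays. The shorter probe gave 25.1 ± 3.37 (10 spots) and 2.49 ± 2.95 (7 spots). The dimmest detected probe of the normal-labelled array had 18.2 intensity units, so the level of miR-100 there has only an upper limit.

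Set against that limit and scaled, miR-100 was at least 1.32-fold higher on the tumour-labelled array over both probes (log2 0.40). The longer probe alone gave at least 2.37-fold (log2 1.25), and the shorter one gave no fold of its own because its scaled signal was 0.73 of the limit. That value still entered the average over both probes. It lowered the bound to 0.40, and with it the differences from other members taken from that bound below. Detection on the tumour-labelled array alone was found for 19 of the 350 miRNAs (5.43%). The scanner software, which sums the probes of a miRNA and applies its own rule, marked miR-100 as detected on both arrays, with total signals of 71.1 ± 6.73 and 9.56 ± 3.35 (the software's error). On that measure the scaled log2 ratio was 2.18, against a bound of 0.40 from the spots.

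miR-99b went the other way from its family. Its longer probe gave 23.6 ± 3.71 intensity units on the tumour-labelled array (10 spots, 9 of them well above background) and 29.0 ± 4.69 on the normal-labelled array (8 spots). The spots ran from 18.7 to 31.8, with a median of 23.0, on the tumour-labelled array, and from 21.9 to 38.8, with a median of 29.0, on the normal-labelled array. These unscaled values overlapped, and the scaled ones did not. The shorter probe was detected on neither array. After scaling miR-99b was 2.32-fold lower on the tumour-labelled array (log2 ratio -1.21, spot SE 0.11), and without scaling it was 1.22-fold lower (-0.29). Its signal on the tumour-labelled array was close to the detection limit there, 18.3 intensity units, and the ratio rests on 1 probe.

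miR-125b-5p had nearly the same scaled level on both arrays. The longer probe gave 1012 ± 43.1 intensity units (10 spots) on the tumour-labelled array and 566.9 ± 12.6 (8 spots) on the normal-labelled array. Its spots ran from 944.4 to 1089 and from 547.1 to 585.1, so the unscaled spots were far apart. After scaling the spots of both of its probes overlapped between the arrays. The scaled log2 ratio was -0.10 (spot SE 0.02), or 1.07-fold lower, with the probes at -0.11 and -0.09. Without scaling it was 0.82, or 1.77-fold higher on the tumour-labelled array, so the sign of miR-125b-5p depended on the scaling.

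miR-125a-5p gave almost equal unscaled signals on the arrays. Its longer probe had 66.7 ± 3.68 intensity units on the tumour-labelled array and 62.8 ± 8.13 on the normal-labelled array (10 spots each). The spots ran from 61.6 to 72.1 and from 50.6 to 78.5, so those of the tumour-labelled array lay inside the range of the others. The shorter probe had 1 of 10 spots well above background on each array and was not used. After scaling miR-125a-5p was 1.78-fold lower on the tumour-labelled array (log2 ratio -0.83, spot SE 0.06) and its spots no longer overlapped, while without scaling the log2 ratio was 0.087.

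**Figure D1:**
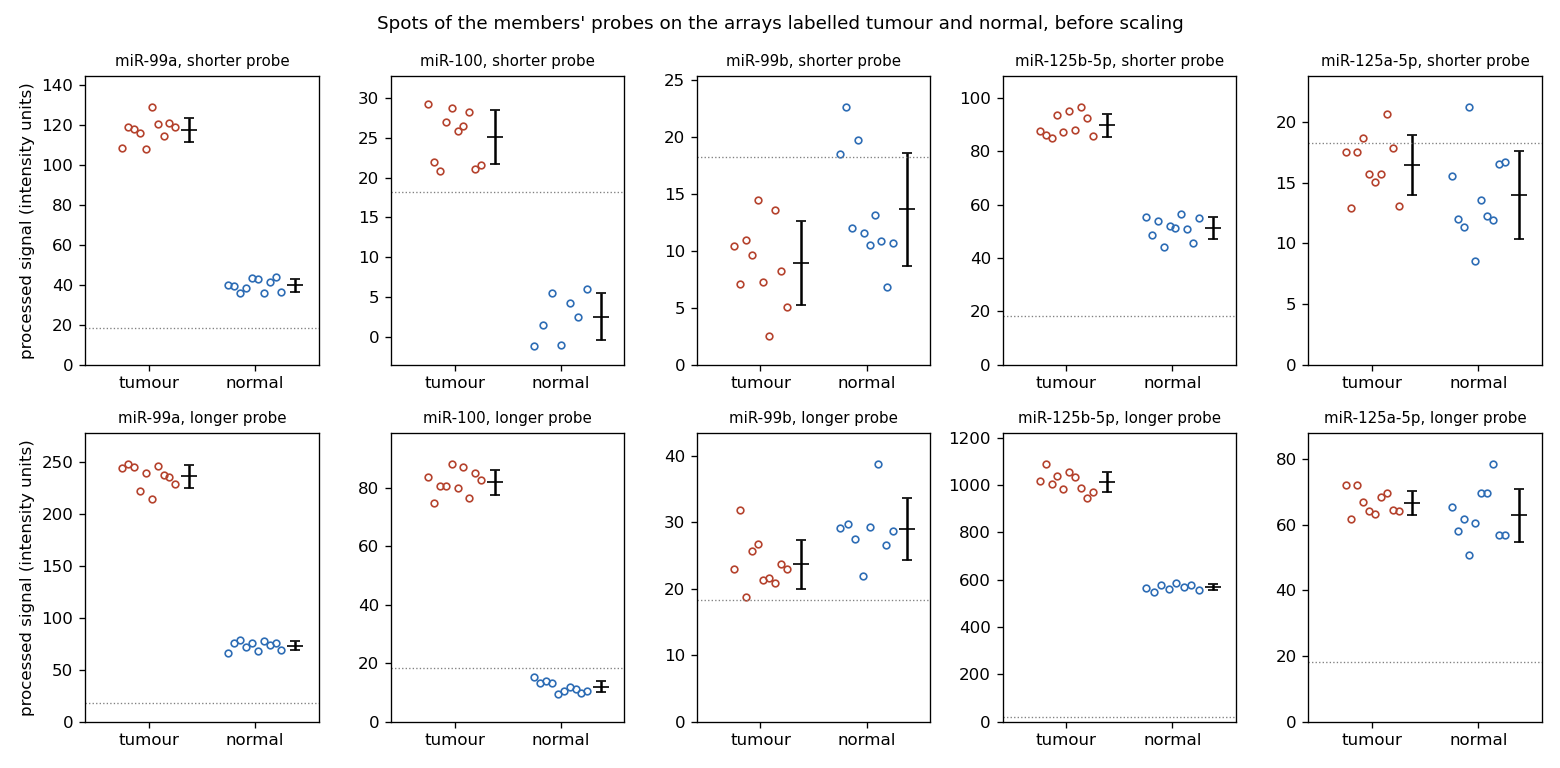
Processed signal in intensity units, before scaling, of each spot of the 10 probes (columns: members; rows: shorter and longer probe), with tumour and normal standing for the arrays so labelled. Circles are single spots without those marked as outliers, black marks are the mean ± spot SD, the dotted line is the dimmest detected probe of the tumour-labelled array (18.3), and each panel has its own scale. Both probes of miR-99a and miR-125b-5p and of miR-100 are brighter on the tumour-labelled array, whereas the spots of miR-99b and miR-125a-5p overlap.

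Of the 4 members measured on both arrays, 1 had a scaled ratio above 0 and 3 below it, 0 reached 2-fold upward and 1, miR-99b, reached it downward. Of all 85 miRNAs measured on both arrays 32 had a scaled ratio above 0 and 53 below it. Of these 85, 12.9% reached 2-fold upward and 22.4% reached it downward. The members' median log2 ratio of -0.47 was close to that of all 85, which was -0.46. They were spread over the ranking, with miR-99a at rank 17 from the highest, miR-125b-5p at 35, miR-125a-5p at 62 and miR-99b at 74. Without scaling 3 of the 4 were above 0, against 65 of the 85. Of the 4, 1 (miR-99a) then reached 2-fold upward and 0 downward, against 32.9% and 5.88% of the 85.

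**Figure D2:**
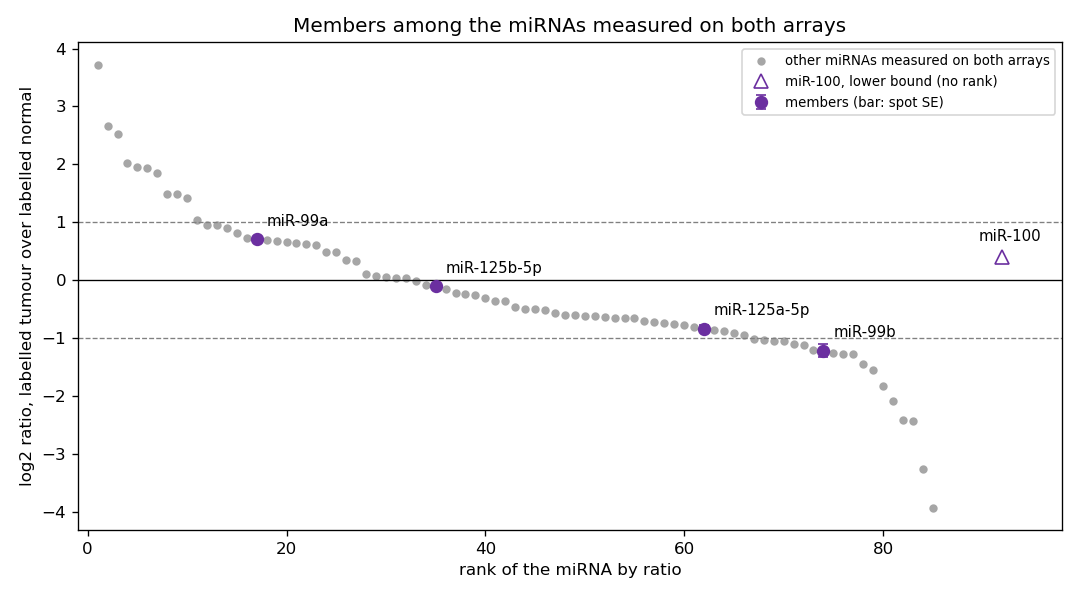
Log2 ratio, labelled tumour over labelled normal, of the 85 miRNAs measured on both arrays after scaling, ordered by rank; purple points are the members with their spot SE, the open triangle is the lower bound of miR-100, which has no rank, and dashed lines mark 2-fold. The members run from 0.71 for miR-99a to -1.21 for miR-99b.

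The order of the ratios was the same under each of the 7 scalings shown, with miR-99a above miR-125b-5p, miR-125b-5p above miR-125a-5p and miR-125a-5p above miR-99b. A common factor between the arrays moves the members together and leaves their differences as they are. miR-99a stayed above 0 and miR-99b below 0 under each of them, while miR-125b-5p and miR-125a-5p changed sign. With the arrays' positive control features as the standard, miR-99a was at 1.56, miR-125b-5p at 0.75, miR-125a-5p at 0.015 and miR-99b at -0.36. In that setting miR-99a was past 2-fold and miR-99b was not. The same held without scaling, with a percentile over all probes (miR-99a at 1.19, miR-99b at -0.73) and with a percentile that skipped muscle miRNAs (1.06 and -0.86).

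**Figure D3:**
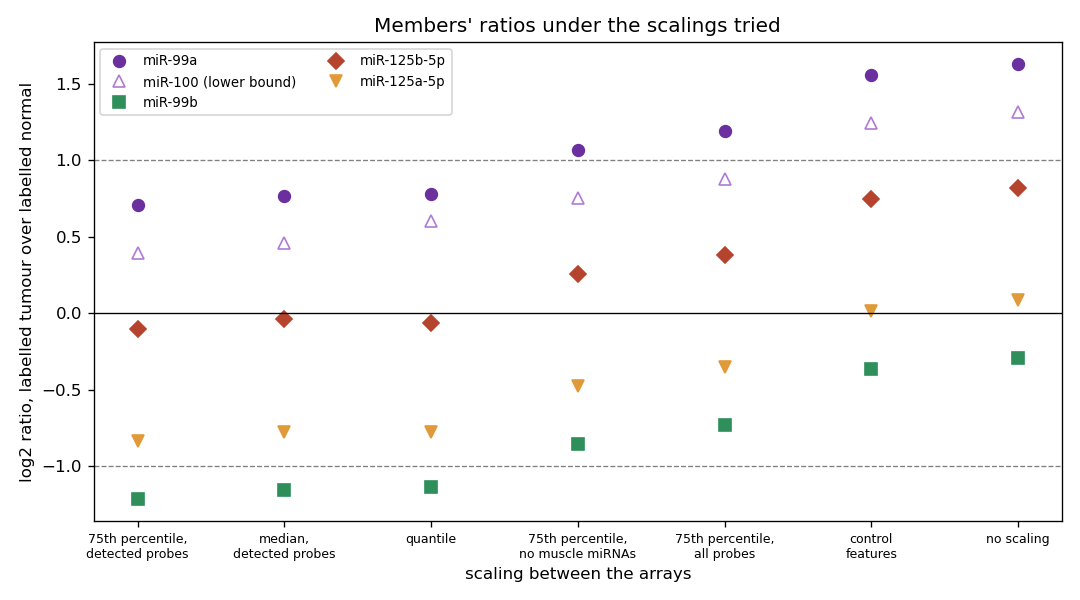
Log2 ratio of each member, labelled tumour over labelled normal, under the 7 scalings tried; open triangles are lower bounds of miR-100 and dashed lines mark 2-fold. miR-99a runs from 0.71 to 1.63 and miR-99b from -1.21 to -0.29, and the order of the measured members is the same throughout.

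The comparison of cluster partners does not need a scaling, because a factor common to an array cancels within it. In the cluster of Mir99a and Mir125b2, the ratio of miR-99a exceeded that of miR-125b-5p by 0.81 on the log2 scale (1.75-fold, spot SE 0.04). In the cluster of Mir100 and Mir125b1, the ratio of miR-100 exceeded that of miR-125b-5p by at least 0.50 (1.41-fold), and by 2.06 on the total signal of the scanner software. In the cluster of Mir99b and Mir125a, the ratio of miR-99b was 0.38 below that of miR-125a-5p (1.30-fold, spot SE 0.13), about as much as the SD of single spots for that difference, 0.38. The miR-99/100 member was thus the one further from 0 in each cluster after scaling, upward in the clusters with miR-125b and downward in the cluster with miR-125a. Since miR-125b-5p is the sum of 2 genes, the first 2 differences share it and are not independent.

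The members of the miR-99/100 family also differed among themselves. The ratio of miR-99a exceeded that of miR-99b by 1.92 (3.79-fold, spot SE 0.11), and that of miR-100 exceeded it by at least 1.61 (3.05-fold). Over both probes no difference between miR-99a and miR-100 can be given, since that bound of miR-100 lies below the ratio of miR-99a. With the longer probes alone, miR-100 was at 1.25 or more and miR-99a at 0.77. On the total signal of the scanner software the scaled log2 ratios were 2.18 for miR-100 and 0.93 for miR-99a. In the miR-125 family the ratio of miR-125b-5p exceeded that of miR-125a-5p by 0.73 (1.66-fold, spot SE 0.07), which is near the 0.81 between miR-125b-5p and its neighbour miR-99a. Within both families the member from the cluster of Mir99b and Mir125a had the lower ratio. The family comparisons of this paragraph, with that of miR-99a and miR-100, were chosen after the members' values were known.

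Neighbouring miRNA genes give a background for these differences. Among the 85 measured miRNAs, 32 pairs without let-7 lay within 100 kb of each other on the same strand, and 9.38% of these pairs differed by 1 or more on the log2 scale, against 52.8% of all 3570 pairs. The median absolute difference was 0.24 for neighbours and 1.096 for all pairs. The pair of miR-99a and miR-125b-5p, at 0.81, was the 6th most different of the 32 neighbouring pairs, and that of miR-99b and miR-125a-5p, at 0.38, was the 11th. The first of these pairs also had the widest gap of the 32, 45.1 kb, and the next widest was 19.7 kb. The part of the gap in its difference was not tested. The 32 include both of these pairs, and the median of the other 30 was 0.21. Pairs from the same cluster share miRNAs and are not independent. The closest neighbours were miR-19b and miR-20a of the miR-17 cluster, which differed by 0.0046, and the furthest were the muscle miRNAs miR-133b and miR-206, which differed by 1.75. The difference between miR-99a and miR-99b, 1.92, was larger than that of any of the 32 neighbouring pairs, and 25.3% of all pairs differed by as much or more.

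**Figure D4:**
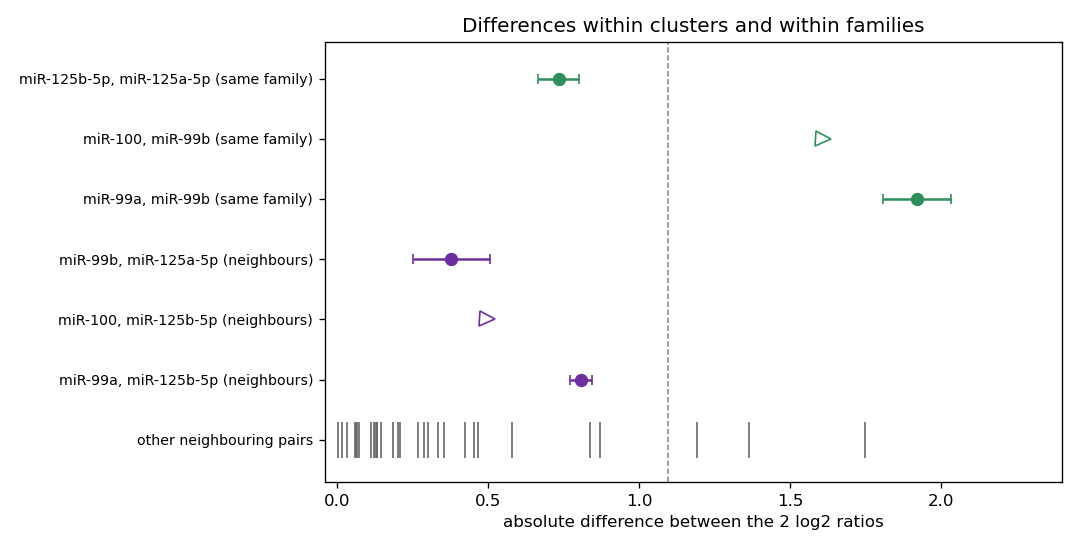
Absolute difference between the log2 ratios of 2 miRNAs, for the members' cluster partners (purple), for members of 1 family (green) and for the 30 other pairs of neighbouring miRNA genes (grey ticks); bars are the spot SE, open triangles are lower bounds and the dashed line is the median of all pairs, 1.096. Of the cluster pairs measured on both arrays 1 lies at 0.38 and 1 at 0.81, that of miR-100 has only a lower bound, and the pair of miR-99a and miR-99b lies at 1.92.

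The other strands of the members were not detected. Of 6 passenger or 3′ strands listed, 5 were on the array with 20 probes, and 0 were detected on either array. The highest probe signals among them, for miR-125a-3p, were 5.49 intensity units on the tumour-labelled array and 7.21 on the other. miR-351, which shares the seed of miR-125, was detected on neither array, and its brightest probe had 0.040 and 1.97. In the miR-10 family, whose sequence resembles miR-99/100, miR-10a-5p was not detected, and miR-10b was higher on the tumour-labelled array with a scaled log2 ratio of 1.49 (spot SE 0.11) from 1 probe.

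With 2 arrays a miRNA's pattern is a single ratio, and the likeness of patterns is the difference between ratios. Nearest to miR-99a (0.71) were miR-195 (0.70), miR-29a (0.73) and the endothelial miR-126 (0.68). Nearest to miR-125b-5p (-0.10) were miR-345-5p (-0.09), miR-107 (-0.15) and miR-24 (-0.22). miR-125a-5p (-0.83) lay among miR-106b (-0.85), miR-27a (-0.80) and miR-130a (-0.88). miR-99b (-1.21) lay among miR-96 (-1.20), miR-141 (-1.26), which had the lowest ratio of the 7 epithelial markers, and miR-494 (-1.27).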

How the data were processed

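Cy3-labelled RNA was read on Agilent 1-colour miRNA arrays. The only labelling kit the labels name is an mRNA amplification kit. The deposited spot intensity was, per the file headers, corrected for background and spatial trend by Feature Extraction 10.5.1.1, with no normalization between arrays. The deposited value table also holds an intensity, the software's total gene signal with values below 1 set to 1. Spots not marked as outliers were averaged per probe (7 spots of the members' 20 probe and array sets were left out). Arrays were divided by the 75th percentile of their values at the 140 probes that both detected, floored at the dimmest detected probe (18.3 and 18.2 intensity units) and put on the log2 scale, and probes detected on both arrays were averaged. Spot SE and SD cover spots only, and the number of arrays limits the precision. Negative controls averaged 1.21 and 2.64 intensity units. Python 3.11.15 and limma 3.58.1 (normexp) were used, and the steps were tested on simulated data. Both simulated arrays were made from the normal-labelled array, with no difference in brightness built in. The median shift of unchanged miRNAs was taken off before the check. The simulation therefore could not test the scaling between arrays, and it did not cover the bounds. Members and lists were chosen with earlier results of these data known. Named miRNAs are the members, seed relatives, other strands, miR-10, the 3 nearest ratios per member without let-7, and the neighbouring pairs with the smallest and largest difference. Of the 85 measured miRNAs, 81 matched a gene with a known strand in the RefSeq table of GRCr8, while the array's grid names rn4.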

Additional observations from a re-analysis of the deposited data

How the results depend on the processing

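Of 14 other settings tried, 2 scalings were added after seeing the data. Only miR-99b and the differences of miR-99a and miR-100 from miR-99b were past 2-fold in the main setting. None of these changed sign in a setting that gave it a value. Among the smaller ratios, miR-125b-5p was above 0 in 6 settings and miR-125a-5p in 2, against values below 0 in the main setting. Log2 ratios of miR-99a, miR-100 (bound), miR-99b, miR-125b-5p and miR-125a-5p, in that order, were 1.63, 1.32, -0.29, 0.82 and 0.087 without scaling, 1.19, 0.88, -0.73, 0.38 and -0.35 with a 75th percentile taken from all probes, 1.56, 1.25, -0.36, 0.75 and 0.015 on the positive control features (added), and 1.06, 0.75, -0.86, 0.26 and -0.48 without the muscle miRNAs in the percentile (added). Scaling of this kind left each difference between members as it was. The median of all 85 miRNAs moved by 0.92, 0.48, 0.85 and 0.36 in these 4 settings. The total gene signal and the deposited value table gave 0.93 for miR-99a, 2.18 for miR-100, 0.12 for miR-125b-5p and -0.60 for miR-125a-5p. Each was scaled by a 75th percentile of its own, and the median of the 85 miRNAs moved by 0.23. The moves of single members therefore hold a change of scaling as well as of measure. With both, miR-100 exceeded miR-125b-5p by 2.06 and miR-99b by 3.28. Quantile normalization put the bound of miR-100 at 0.60. With all spots required above background it was 0.039, and 0.16 over miR-125b-5p. Its brightest probe alone gave 1.25, and 1.33 over miR-125b-5p and 2.46 over miR-99b. Normexp adds an offset of 50, which draws the ratios of dim probes toward 0 before scaling but not after it. It gave 0.20 for miR-99a, 0.39 for miR-99a over miR-125b-5p and 1.1003 for miR-99a over miR-99b. In that setting the bound of miR-100 fell below 0, which gives no direction, and it was left out. miR-99b lay from -1.28 to -0.29 over these settings, in 1 of them (all spots above background) as a bound. The differences of miR-99b from miR-125a-5p (-0.50 to -0.13) and of miR-125b-5p from miR-125a-5p (0.58 to 0.78) kept their sign in all 14. The 14 are not separate checks of this. Scaling by a common factor could not change these differences, and the total gene signal and the deposited value table gave the same values. No paired analysis was possible because each group has 1 array. Signal over background limits miR-99b and miR-100 most.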
